A study of Mus musculus with 11 samples.

Results

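Neurod6, Spink8, Wfs1, Fibcd1, Pou3f1 and Mpped1 are genes used as markers of the pyramidal neurons of hippocampal area CA1, and these 6 genes of the 22377 in the table are described here across 11 libraries. They were chosen with results of these data in view. Neurod6 and Spink8 were picked because they stood lower on the infarcted side of the brain in 5 of 5 pairs of libraries, and the other members were added as CA1 genes to see whether they did the same. The libraries come from hippocampal total RNA of male C57BL/6N mice and were read by CAGE (cap analysis of gene expression), whose reads start at the cap of each transcript. Photothrombosis (PT) makes a cortical infarct: rose bengal (35 mg/kg) is given and the left parietal lobe is lit through a spot 3.5 mm wide with 565 nm LED light for 30 min, which closes its vessels. Groups were 1 naive library (untreated, side not given) and, for each of 5 PT conditions, 1 library of the infarcted and 1 of the non-infarcted side. The conditions were 7 d after PT, 7 d after PT with levetiracetam (LEV), 1 m after PT, 1 m after PT with LEV, and 2 m after PT with LEV withdrawn. LEV, a medicine against seizures whose target is SV2A on synaptic vesicles, was dissolved at 5 mg/mL in water that the mice drank freely. The labels give a withdrawal of 2 w and the series text 1 week. LEV is described as given for 2 weeks from 1 month after PT. The timing of LEV in the 7 d and 1 m LEV libraries is therefore unknown here. The sources used here give 2 age ranges (8 to 10 and 65 to 85 weeks) without assigning libraries to them. They also do not say how many animals a library held or whether the sides of a condition come from shared animals.

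CA1 is the output field of the hippocampal loop: its pyramidal neurons receive CA3 input and project to the subiculum and cortex. Neurod6 encodes a basic helix-loop-helix (bHLH) transcription factor of pyramidal neurons, and Pou3f1 a POU-domain transcription factor. Wfs1 encodes wolframin, a membrane protein of the endoplasmic reticulum, Fibcd1 a transmembrane receptor with a fibrinogen-like domain, Spink8 a Kazal-type protease inhibitor, and Mpped1 a protein with a metallophosphoesterase domain. Neurod6, Wfs1, Pou3f1 and Mpped1 are also made in neurons of the neocortex, so in whole hippocampus their RNA need not all come from CA1. In bulk RNA, fewer cells of a type and less RNA per cell cannot be told apart.

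All 6 members had 1 row each in the table, and no other row had the same reads in every library. All 6 passed the filter for testing (a mean of at least 1 CPM, reads per 1000000 reads of the library). They lie apart in the genome. On GRCm38, Neurod6 (ENSMUSG00000037984.9) is at chromosome 6, 55677822 to 55681263, minus strand, and Spink8 (ENSMUSG00000050074.12) at chromosome 9, 109812280 to 109826633, plus strand. Wfs1 (ENSMUSG00000039474.13) is at chromosome 5, 36966104 to 36989205, minus strand, and Fibcd1 (ENSMUSG00000026841.7) at chromosome 2, 31813290 to 31846005, minus strand. Pou3f1 (ENSMUSG00000090125.3) is at chromosome 4, 124656807 to 124660655, plus strand, and Mpped1 (ENSMUSG00000041708.12) at chromosome 15, 83779467 to 83858494, plus strand. GENCODE M21 lists 1 transcript each for Neurod6, Fibcd1 and Pou3f1, 3 each for Spink8 and Wfs1, and 11 for Mpped1. Pou3f1 is overlapped on the opposite strand by Gm2164, which stood at 22.5 CPM in the naive library, 20.9 to 24.1 CPM at 7 d, 19.4 to 21.6 CPM at 1 m and 15.04 to 25.8 CPM at 2 m. The sources used here do not say whether counting used strand, so the reads of these partners may not be fully separated.

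Since CAGE reads begin at the start of the transcript, the upstream windows of a member that stood lower on the infarcted side (Neurod6) and of one that did not in every pair (Fibcd1) are shown. They are the 250 bases before the RefSeq start on GRCm38.p6, Neurod6 at chr6:55681264-55681513 and Fibcd1 at chr2:31846006-31846255, both on the minus strand and written 5′ to 3′ in the direction of transcription. Capitals mark E-boxes (CANNTG, the same on both strands), the kind of motif that bHLH factors bind.
Neurod6: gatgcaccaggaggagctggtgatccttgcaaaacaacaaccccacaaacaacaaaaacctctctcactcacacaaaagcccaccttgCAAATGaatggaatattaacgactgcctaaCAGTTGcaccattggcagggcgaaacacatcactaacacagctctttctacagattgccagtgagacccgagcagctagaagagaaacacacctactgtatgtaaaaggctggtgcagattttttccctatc
Fibcd1: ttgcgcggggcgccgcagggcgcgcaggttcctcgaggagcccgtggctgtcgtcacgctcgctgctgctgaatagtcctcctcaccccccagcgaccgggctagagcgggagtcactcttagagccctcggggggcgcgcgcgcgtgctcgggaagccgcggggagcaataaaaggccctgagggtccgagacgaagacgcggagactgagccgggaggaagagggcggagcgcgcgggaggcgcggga
The Neurod6 window has 46.0% G and C and 3 CpG pairs, and the Fibcd1 window 71.6% and 34 CpG pairs, where the median of all 32851 RefSeq windows is 52.4% and 6. Neurod6 holds 2 E-boxes, CAAATG beginning at position -162 and CAGTTG at position -132, counted from -1 at the base before the start, and Fibcd1 holds 0. An E-box was in 66.2% of all windows of this length. The POU octamer ATGCAAAT (both strands, in 1.6% of windows) and the TATA box TATAAA (both strands, in 12.4%) were in neither. These matches describe the letters only. Windows were found for 4 of the 6 members. Wfs1 (69.6% G and C, 23 CpG pairs) holds 1 E-box, CATCTG. Of the 2 windows of Mpped1 the first (88.8%, 47 CpG pairs) holds 0 and the second (46.8%, 2 CpG pairs) holds 1, CAGTTG. Unlike those of Neurod6 and Fibcd1, the Wfs1 and Mpped1 windows overlap GENCODE M21 transcripts of their own gene, so they are not wholly upstream sequence.

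Library totals ranged from 13382623 to 22377376 reads. Members had 515 to 3836 reads in a library, and the 95% exact Poisson intervals drawn in the plot of levels cover counting error only. Markers of dentate granule cells, CA3, CA2, interneurons and excitatory neurons were above 0 in every library. On the first principal component of the 16057 tested genes (44.9% of the variance), the naive and 1 m libraries lay at 10.4 to 33.5 and the 7 d and 2 m libraries at -32.0 to -9.02. The labels name no batch. Summed over 5 genes of the choroid plexus, the PT 1 m infarcted library reached 43.3 CPM and PT 1 m LEV non-infarcted 86.8 CPM, against 1243 to 4769 CPM in the other libraries.

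**Figure D1:**
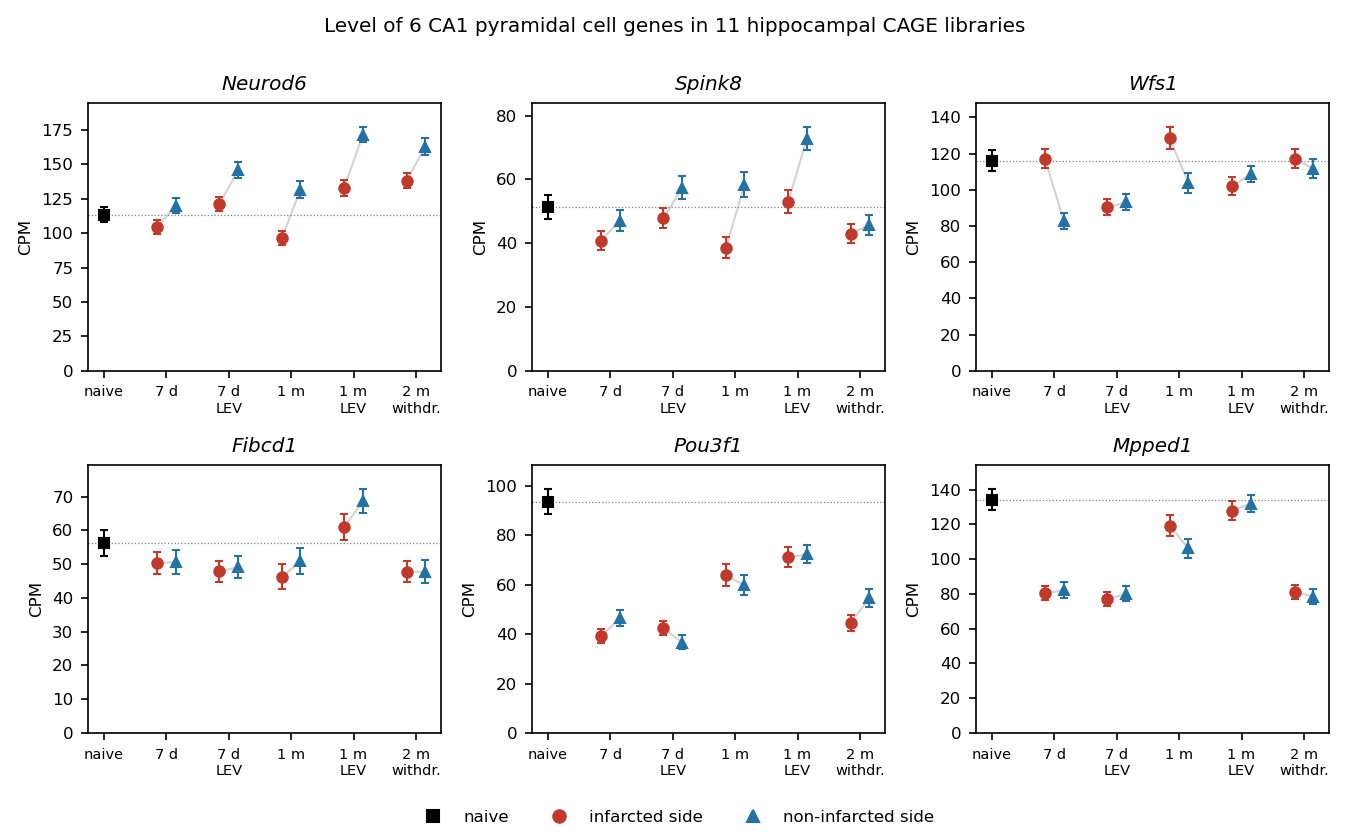
Level of each of the 6 genes (CPM, linear axis from 0) in the naive library (square, dotted line) and on the infarcted (circle) and non-infarcted (triangle) side in 5 PT conditions; bars are 95% exact Poisson intervals for counting error only, and grey lines join the sides of a condition. Neurod6 and Spink8 are lower on the infarcted side in every condition, which is how they were chosen. Levels of Pou3f1 and Mpped1 vary between time points but do not rise or fall steadily with time after PT. Time after PT and whatever else parts these libraries cannot be told apart. Both genes stand below naive in 10 of 10 PT libraries.

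The first comparison set the infarcted against the non-infarcted side within each PT condition. Neurod6 and Spink8 stood lower on the infarcted side in every pair, which is how they were chosen, and the other 4 members did not. None of the 6 had every infarcted library below every non-infarcted one, as 0.0498% of tested genes did. Over all tested genes 2.71% were lower on the infarcted side in 5 of 5 pairs and 5.26% were higher. Limma called 0 genes between sides (0% of those tested), with 1221 genes at an unadjusted p under 0.05. EdgeR also called 0 and DESeq2 15. Since the members were chosen on this contrast, their values are given with no test, as differences of log2(CPM + 1), infarcted minus non-infarcted. The SE beside a mean difference comes from the limma fit. It rests partly on the spread of other genes and is not the plain SE of the 5 differences.

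Neurod6 at 7 d had 104 CPM (infarcted) and 119.7 CPM (other side). It had 121 and 146 CPM at 7 d with LEV, and 96.4 and 132 CPM at 1 m. It was at 133 and 171 CPM at 1 m with LEV, and 138 and 163 CPM at 2 m. The infarcted libraries averaged 118.6 ± 18.0 CPM (SD, n = 5) and the others 146 ± 21.3 CPM, so that the ranges of the sides overlapped while each pair kept the same order. The log2 difference was -0.20, -0.26, -0.45, -0.37 and -0.23 in the order 7 d, 7 d LEV, 1 m, 1 m LEV and 2 m, a mean of -0.30 (SE 0.048). The non-infarcted side lay above the naive level of 113 CPM in every condition, while infarcted libraries lay on both sides of it.

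Spink8 was at 40.9 and 47.1 CPM (infarcted, then other side) at 7 d, 47.8 and 57.3 CPM at 7 d with LEV, and 38.5 and 58.3 CPM at 1 m. It was at 52.9 and 72.8 CPM at 1 m with LEV and 43.1 and 45.6 CPM at 2 m, beside 51.3 CPM in naive. The pairs were farthest apart at 1 m, with and without LEV, and closest at 2 m, and the Poisson intervals of the sides overlapped at 7 d without LEV and at 2 m. The log2 differences were -0.20, -0.26, -0.59, -0.45 and -0.082 in the same order of conditions, a mean of -0.32 (SE 0.069). Each 1 m pair holds 1 of the libraries low in choroid plexus genes. Without these pairs the mean was -0.23 for Neurod6 and -0.18 for Spink8.

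Wfs1 ran the other way in the pairs without LEV. It was at 117 and 82.7 CPM (infarcted, then other side) at 7 d and at 128 and 104 CPM at 1 m, differences of 0.50 and 0.31. With LEV it was at 90.3 and 93.1 CPM at 7 d and 102 and 109 CPM at 1 m, differences of -0.043 and -0.094, and at 2 m at 117 and 112 CPM (0.070). Naive Wfs1 was 116 CPM. The mean difference was 0.15 (SE 0.076) and was 0.060 without the 7 d pair. Thus 3 of 5 pairs were higher on the infarcted side and 2 lower.

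Fibcd1, which stood just outside the 5 of 5 rule, was lower on the infarcted side in 4 of 5 pairs by small amounts. It was at 50.3 and 50.6 CPM at 7 d, 47.9 and 49.1 CPM at 7 d with LEV, 46.3 and 50.9 CPM at 1 m, 60.9 and 68.6 CPM at 1 m with LEV, and 47.8 and 47.7 CPM at 2 m. Its differences ran from -0.17 at 1 m LEV to 0.0029 at 2 m (mean -0.069, SE 0.049), and its naive level was 56.1 CPM. For comparison, the pair of Spink8 nearest to 0 was the 2 m pair.

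Pou3f1 and Mpped1 had no common order between sides. Pou3f1 was at 39.1 and 46.5 CPM at 7 d, 42.4 and 36.6 CPM at 7 d with LEV, 63.8 and 59.8 CPM at 1 m, 71.1 and 72.3 CPM at 1 m with LEV, and 44.5 and 54.5 CPM at 2 m (mean difference -0.050, SE 0.071; lower in 3 of 5 pairs). Mpped1 was at 80.4 and 82.1 CPM at 7 d, 77.0 and 80.2 CPM at 7 d with LEV, 119 and 106 CPM at 1 m, 128 and 132 CPM at 1 m with LEV, and 81.1 and 78.5 CPM at 2 m (mean 0.016, SE 0.047; lower in 3 of 5 pairs). Without the 2 m pair Pou3f1 stood at 0.0093, and without the 1 m pair Mpped1 at -0.022. For both, the gap between sides was smaller than the gap between 7 d and 1 m. Over the 6 members the median difference between sides was -0.060, with 2 above and 4 below 0, beside a median of 0.019 over all tested genes. Of the 16057 tested genes 9539 lay above 0 and 6518 below.

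**Figure D2:**
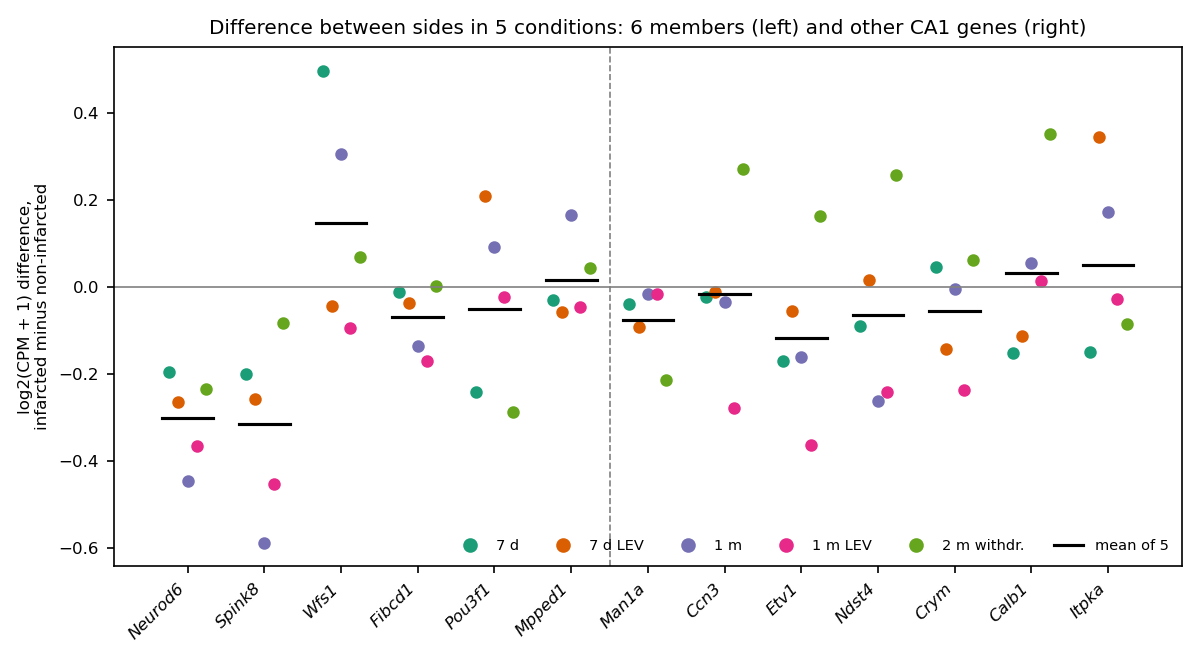
Difference of log2(CPM + 1), infarcted minus non-infarcted, in each of 5 PT conditions (coloured points) with its mean (black bar) for the 6 genes and for 7 other CA1 genes. All 5 points lie below 0 for Neurod6 and Spink8, which were chosen for this, and for Man1a. The means of the others range from -0.12 (Etv1) to 0.15 (Wfs1).

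A further 7 genes are known to be enriched in CA1 pyramidal cells, among other places. They gave no shift of the size seen in Neurod6 and Spink8, which were chosen on this contrast. Their median difference was -0.055, with 2 above and 5 below 0, and 0 passed the test. Man1a, a Golgi mannosidase, was lower on the infarcted side in 5 of 5 pairs, but by a mean of -0.075 (SE 0.052). Etv1, an ETS transcription factor, stood at -0.12, Ndst4, a heparan sulfate enzyme, at -0.064, and Crym, a thyroid hormone-binding protein, at -0.055. Ccn3, a secreted matricellular protein, stood at -0.015, Calb1, the calcium buffer calbindin, at 0.032, and Itpka, an inositol phosphate kinase of dendritic spines, at 0.052. None of these 7 reached an adjusted p below 0.696 by limma. Genes of ventral CA1 lay mostly above 0 (4 of 5, median 0.13), among them Dcn, a matrix proteoglycan (0.13), and Htr2c, a serotonin receptor (0.18), with 0 passing. By pair Htr2c stood at -0.43 at 1 m, 0.34 at 1 m LEV and 0.99 at 2 m. Ttr of the choroid plexus list stood at -5.20, 4.39 and 1.68. Their signs were also the same at 7 d LEV (0.21 and 0.30) but not at 7 d (-0.19 and 0.12). The part of choroid plexus content in the Htr2c value was not tested.

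Of 9 excitatory neuron genes 7 lay below 0 (median -0.0095) and 0 passed. Hpca, the calcium sensor hippocalcin of hippocampal pyramidal cells, was lower on the infarcted side in 5 of 5 pairs (mean -0.16, SE 0.055, limma adjusted p = 0.527). Camk2a, a kinase of excitatory synapses, stood at -0.0095 and Nrgn, a calmodulin-binding protein of dendrites, at -0.078. Neurod2 and Neurod1, paralogs of Neurod6 named after their values were seen, stood at -0.18 and -0.042, lower in 4 of 5 pairs each. Lists for CA3 (median -0.0091), CA2 (-0.019) and dentate granule cells (0.0076) had 0 genes passing. Of these, Rgs14, a signalling regulator of CA2, was lower in 5 of 5 pairs (-0.13, adjusted p = 0.552 by limma), while Pcp4 stood at 0.016, Grik4 at -0.022, Nnat at 0.051, C1ql3 at 0.087, C1ql2 at -0.024 and Prox1 at -0.0059.

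Genes of other cell types were read from the same libraries. Over all 16057 tested genes 9539 lay above 0 between sides, and 5.26% were higher on the infarcted side in 5 of 5 pairs. Microglia genes lay above 0 in 6 of 6 (median 0.39), 5 of them higher in 5 of 5 pairs, and their summed level was 232 to 446 CPM on the infarcted and 200 to 236 CPM on the other side. Astrocyte genes also lay above 0 in 6 of 6 (median 0.36), 3 of them in 5 of 5 pairs, with summed levels of 600.8 to 1194 and 570 to 848 CPM. Neocortex genes (median 0.11, 6 of 7 above 0) had summed levels of 137 to 160 and 132 to 158 CPM. Thalamus and striatum genes (median 0.23, 5 of 6 above 0) had 173 to 227 and 153 to 193 CPM. No member of these 4 lists was at 0 in any PT library, and 0 passed. The part of these levels in the Neurod6 and Spink8 differences was not tested.

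**Figure D3:**
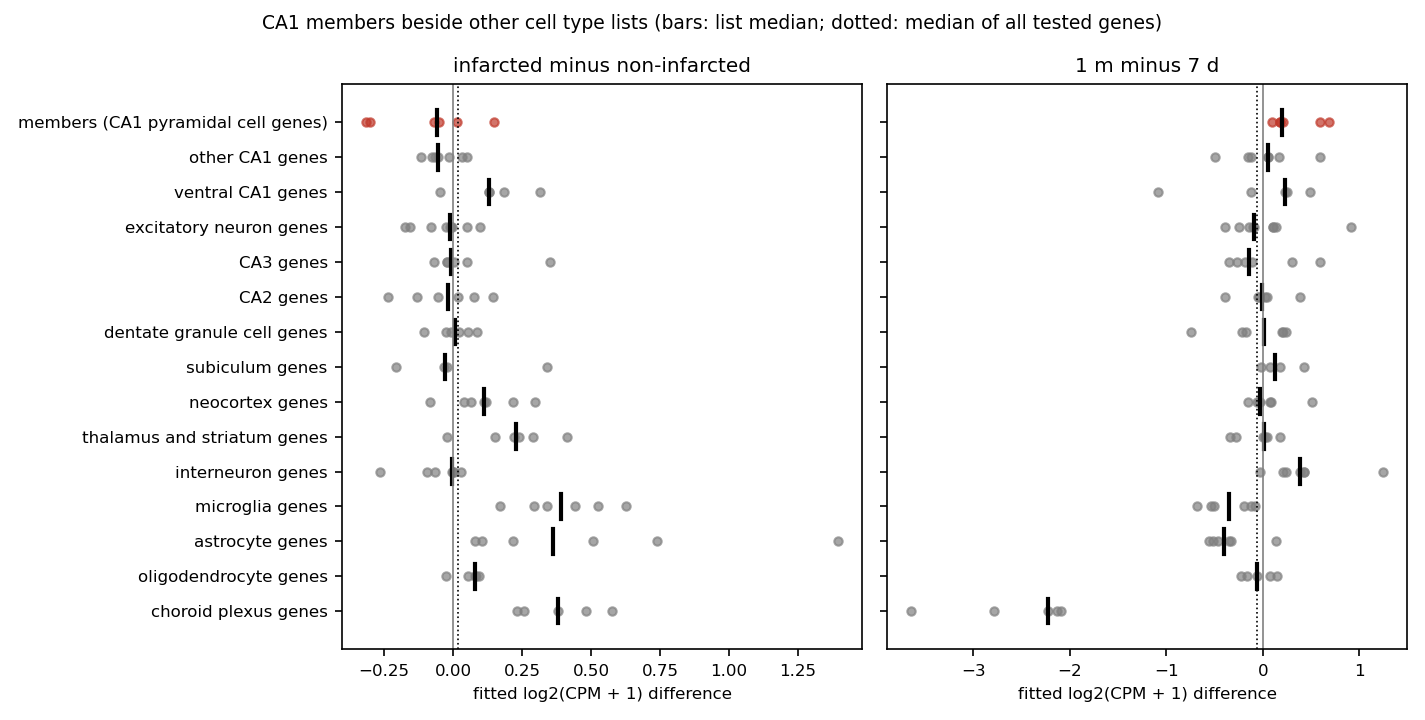
Fitted log2(CPM + 1) difference of each gene (points), for infarcted minus non-infarcted (left) and 1 m minus 7 d (right), in the 6 CA1 genes (red) and other lists (grey); black bars are list medians and the dotted line the median of all tested genes. Neurod6 and Spink8, which were chosen as lower on the infarcted side, have the 2 lowest values of the left panel. Choroid plexus genes have the lowest of the right panel.

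The second comparison asked whether LEV after PT moved these genes, at 7 d and 1 m. Neurod6 and Spink8 were higher with LEV in 4 of 4 matched pairs, but no member passed. By this count of pairs 8.65% of all tested genes were higher and 12.4% lower in 4 of 4, and limma called 3 genes in all (0.0187%). The fit used 4 condition means, with 1 residual degree of freedom, and the matched pairs share their side but not necessarily animals.

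With LEV, Neurod6 averaged 143 ± 21.6 CPM (SD, n = 4 libraries), and 113 ± 15.7 CPM without, a fitted log2 difference of 0.33 (SE 0.12, limma adjusted p = 0.741). The difference by pair was 0.21 and 0.28 at 7 d (infarcted, then other side) and 0.46 and 0.38 at 1 m. Spink8 stood at 57.7 ± 10.8 CPM with and 46.2 ± 8.87 CPM without LEV (0.32, SE 0.12, adjusted p = 0.780), with pair differences of 0.22 and 0.28 at 7 d and 0.45 and 0.31 at 1 m. The 2 libraries low in choroid plexus genes were 1 m infarcted without LEV and 1 m non-infarcted with LEV. Leaving them out, the fitted LEV differences were 0.13 for Neurod6 and 0.056 for Spink8. At 1 m this sets an infarcted library with LEV against a non-infarcted one without. The difference between sides thus enters these values, and they cannot show what the choroid plexus content contributes.

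Fibcd1 and Wfs1 did not move 1 way. Fibcd1 stood at 56.6 ± 9.94 CPM with and 49.5 ± 2.18 CPM without LEV (0.18, SE 0.13, limma adjusted p = 0.876), with pair differences of -0.070 and -0.044 at 7 d and 0.39 and 0.43 at 1 m. Wfs1 stood at 98.5 ± 8.46 and 108 ± 19.7 CPM (-0.12, SE 0.12, limma adjusted p = 0.907), lower with LEV on the infarcted side at both times (-0.37 and -0.33) and higher on the other side (0.17 and 0.069). At 7 d and at 1 m, the highest Wfs1 level was in the infarcted library without LEV.

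Pou3f1 (55.6 ± 18.7 with and 52.3 ± 11.5 CPM without LEV; 0.050, SE 0.12) and Mpped1 (104 ± 29.7 and 97.0 ± 18.9 CPM; 0.079, SE 0.12) gave limma adjusted p = 0.968 and 0.95. For both, each group pools 7 d and 1 m libraries, which differed. Over the members the median was 0.13, with 5 of 6 above 0, beside -0.017 over all tested genes. Of the 16057 tested genes 7319 lay above 0 with LEV and 8738 below. Of the other CA1 genes reported here 7 of 7 lay above 0 (median 0.16) and 0 passed, among them Ccn3 at 0.31, Man1a at 0.23 and Itpka at 0.22. Dentate granule cell genes lay below 0 in 5 of 6 (median -0.19), excitatory neuron genes in 5 of 9 (-0.011), and astrocyte and microglia genes in 6 of 6 each (-0.28 and -0.20). Summed astrocyte levels were 570 to 848 CPM with and 645 to 1194 CPM without LEV, and microglia levels 200 to 279 and 203 to 446 CPM. Whether these shares bear on the LEV difference of Neurod6 and Spink8 was not tested.

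**Figure D4:**
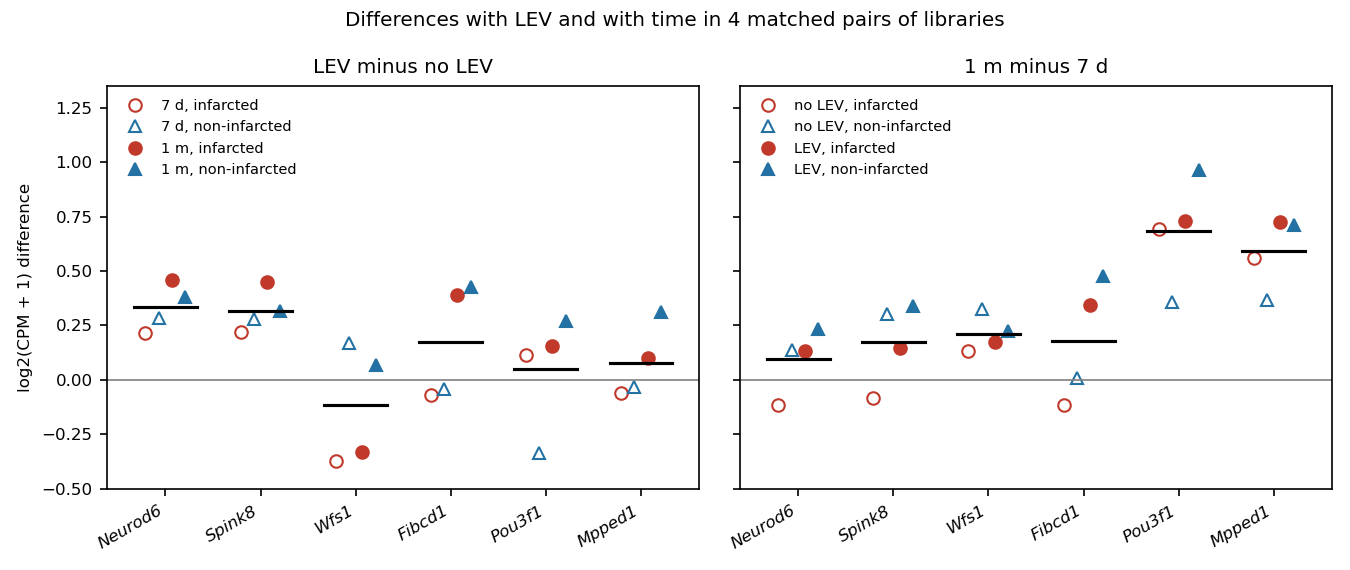
Difference of log2(CPM + 1) in 4 matched pairs of libraries (points by side, open and filled by time or by LEV) with the mean (black bar), for LEV minus no LEV (left) and 1 m minus 7 d (right). All 4 points are above 0 for Neurod6 and Spink8 on the left, and for Wfs1, Pou3f1 and Mpped1 on the right.

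The third comparison set 1 m against 7 d after PT. Pou3f1 and Mpped1 rose, and the other 4 members did not pass. Pou3f1 stood at 66.8 ± 5.94 CPM (SD, n = 4 libraries) at 1 m and 41.2 ± 4.29 CPM at 7 d, 1.62-fold. Mpped1 stood at 121 ± 11.4 CPM and 79.9 ± 2.14 CPM, 1.52-fold. Pou3f1 and Mpped1 did not share ranges between times: neither gene's 1 m range (59.8 to 72.3 and 106 to 132 CPM) touched its 7 d range (36.6 to 46.5 and 77.0 to 82.1 CPM), which held upward for 10.8% of all tested genes and downward for 19.1%. The fitted log2 difference was 0.69 (SE 0.12, limma adjusted p = 0.000619) for Pou3f1 and 0.59 (SE 0.12, adjusted p = 0.00187) for Mpped1, above 0 in 4 of 4 pairs each, as for 17.4% of tested genes. Limma called 15.8% of all tested genes in this comparison, 5.71% higher and 10.1% lower. With TMM scaling the higher share of calls went from 36.1% to 52.6% (58.4% with edgeR and 64.7% with DESeq2), and the calls of Pou3f1 and Mpped1 ended (adjusted p = 0.0552 and 0.0588 by limma), as they did with no filter on low genes (0.0996 and 0.107).

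The naive and 2 m libraries bear on how this difference is read. The naive library, which had no PT, stood with or above the 1 m libraries for both genes, at 93.4 CPM for Pou3f1 and 134 CPM for Mpped1. The 2 m libraries stood below those of 1 m for both genes. Mpped1, at 81.1 and 78.5 CPM, was within its 7 d range, and Pou3f1 was within it on the infarcted side (44.5 CPM) and between the 7 d and 1 m ranges on the other (54.5 CPM). All 5 naive and 1 m libraries were thus above all 6 libraries of 7 d and 2 m for Pou3f1 and for Mpped1, a pattern that 6.81% of tested genes shared and 11.9% showed in reverse. This is the same split as on the first principal component, and time after PT and whatever else parts these libraries cannot be told apart.

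Among the other members, Wfs1 was higher at 1 m in 4 of 4 pairs (111 ± 12.2 against 95.8 ± 14.9 CPM; 0.21, SE 0.12, limma adjusted p = 0.236). Spink8 (0.18, adjusted p = 0.346), Fibcd1 (0.18, adjusted p = 0.381) and Neurod6 (0.097, adjusted p = 0.631) were higher in 3 of 4 pairs each, the lower pair of each being the infarcted side without LEV. The members' median was 0.19, beside -0.060 for all tested genes. Of the other CA1 genes, Itpka rose (0.59, adjusted p = 0.00488 by limma) and Etv1 fell (-0.50, adjusted p = 0.00785), and the list's median was 0.050. Of 9 excitatory neuron genes 1 rose (Slc17a7, a vesicular glutamate transporter, 0.91) and 1 fell (Zbtb20, a transcription factor of hippocampal neurons, -0.39), both named after their values were seen, and Nrgn (0.135), Camk2a (0.10) and Hpca (-0.25) did not pass. Of the NeuroD and POU family and partner genes, 0 of 12 rose and 2 fell. They were Id4 (-0.95, adjusted p = 2.58e-05 by limma) and Id1 (-0.56, adjusted p = 0.0151, named after its value was seen), inhibitors of bHLH factors, while Tcf4, a bHLH partner (-0.18), and Pou3f3, a paralog of Pou3f1 (-0.22), did not pass.

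In these same libraries choroid plexus genes fell in 5 of 5 (median -2.22) and interneuron genes rose in 3 of 7 (median 0.38; Gad1, Gad2 and Vip, Vip named after its value was seen). Their summed levels were 3116 to 4769 CPM at 7 d and 43.3 to 1746 CPM at 1 m for choroid plexus, and 771 to 937 and 1025 to 1197 CPM for interneurons. No gene of either list was at 0. Leaving out the 2 libraries lowest in choroid plexus genes, Pou3f1 stood at 0.66 and Mpped1 at 0.54.

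Naive and withdrawal libraries had no replicate, so their values carry no test. The naive level was above all 10 PT libraries for Pou3f1 and Mpped1, as for 8.69% of tested genes, while 8.3% had the naive level below all 10. For Fibcd1 8 of 10 PT libraries were below naive (56.1 CPM), for Wfs1 7, for Spink8 6 and for Neurod6 2. The PT range was 96.4 to 171 CPM for Neurod6, 38.5 to 72.8 CPM for Spink8, 82.7 to 128 CPM for Wfs1 and 46.3 to 68.6 CPM for Fibcd1. Neurod6, Spink8 and Fibcd1 shared both their lowest PT library, PT 1 m infarcted, and their highest, PT 1 m LEV non-infarcted, which are the libraries low in choroid plexus genes. Wfs1 was highest in PT 1 m infarcted.

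From 1 m LEV to 2 m after withdrawal, Mpped1 differed by -0.65 (infarcted side) and -0.74 (other side), Pou3f1 by -0.67 and -0.40, Fibcd1 by -0.34 and -0.52, and Spink8 by -0.29 and -0.66. Neurod6 stood at 0.056 and -0.075, and Wfs1 at 0.20 and 0.037. Against the 7 d LEV libraries the 2 m values of Mpped1 (0.074 and -0.029) and Fibcd1 (-0.0020 and -0.041) lay close by. Spink8 (-0.15 and -0.32) was lower on both sides there, and Wfs1 (0.37 and 0.26), Neurod6 (0.19 and 0.16) and Pou3f1 (0.066 and 0.56) were higher.

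How alike the members were was described by Pearson's r of log2(CPM + 1) over the 11 libraries, ranked among 12579 genes with a mean of at least 5 CPM. The libraries differ in depth and may share animals, and r serves here only as a measure of likeness. Pou3f1 and Mpped1 were most alike (r = 0.91), followed by Spink8 with Fibcd1 (0.75), Fibcd1 with Mpped1 (0.70) and Neurod6 with Spink8 (0.68). Wfs1 was at -0.22 with Neurod6 and -0.33 with Spink8. No member was among the 3 genes most like another: the closest was Fibcd1, which ranked 30 of 12578 for Spink8, while Mpped1 ranked 100 for Pou3f1 and Spink8 142 for Neurod6.

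The genes most like Neurod6 were Nts, the neuropeptide neurotensin (r = 0.88), Wdr47 (0.87) and Tvp23a (0.86). Those most like Spink8 were Anxa7, a calcium-binding annexin (0.87), Nup54, a nuclear pore protein (0.87), and 9030407P20Rik (0.86). For Wfs1 they were Slc24a4, a sodium, potassium and calcium exchanger (0.92), and Ckb, brain creatine kinase (0.91). For Fibcd1 they were Rprml (0.95), Gm2115 (0.94) and Anks1b, a postsynaptic protein (0.93). For Pou3f1 they were Tada2b (0.97), Ttc7b (0.97) and Lrp3 (0.97), and for Mpped1 they were Celsr2, a cadherin of the planar polarity pathway (0.99), Stim2, a calcium sensor of the endoplasmic reticulum (0.99), and Hnrnpab, an RNA-binding protein (0.98). Closest to the members' mean standardised level were Orai3, a calcium channel subunit (0.96), Stum (0.96), Ubald1 (0.95), Rprml (0.94) and Dclk2, a doublecortin-like kinase (0.94).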

How the data were processed

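CAGE libraries were made from total RNA of whole hippocampus with random primers and cap trapping, per the labels' protocols. The deposited table holds CPM per gene, which the authors scaled to each library's total, and 100% of values were whole reads (within 0.0001) of the recovered totals, 13382623 to 22377376. BWA 0.7.17, HISAT2 2.0.5, DESeq2 1.20.0 and GRCm38 were used, per the submitters' processing notes. The sources used here do not give their roles, the annotation or the counting rule.

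Under R 4.3.3, limma 3.58.1 (lmFit, then eBayes with trend) was fitted to log2(CPM + 1) of the 16057 genes whose mean reached 1 CPM. P-values were adjusted over all of them by Benjamini-Hochberg, with a threshold of 0.05. Sides were fitted over 10 PT libraries with condition as a block, and LEV and time together on 4 condition means averaged over sides. Every group has 1 library, so no p-value measures spread between replicates. The sides fit has 4 residual degrees of freedom, from how the side difference varies between conditions. Its standard errors are moderated by eBayes, so they rest partly on the spread of other genes. The LEV and time fit has 1 residual degree of freedom, to which eBayes adds 21.6 prior degrees of freedom drawn from all genes. Its standard errors and p-values thus rest mostly on the spread of other genes. EdgeR 4.0.16 and DESeq2 1.42.0 on whole reads, TMM scaling, other pseudocounts and filters, single sides and left-out libraries were alternatives. The fits for sides and for time were tested on simulated data with a log2 change of 1 in 200 genes. All 200 were recovered in each, with 10 (sides) and 4 (time) unchanged genes also called. Smaller changes, such as those of the members, were not simulated. Members and gene lists were chosen with earlier results of these data known. Besides the members, the genes named are all other CA1 genes, up to 3 per further list by mean CPM, and those most like each member, except where stated or where a gene is shown for its 5 of 5 pairs. Another CA1 gene of that list and a gene like Wfs1 are not reported here. The list's counts and medians leave the former out, a change made with its values known. Coordinates are from GENCODE M21 (6 of 6 members matched) and promoter windows from RefSeq on GRCm38.p6 (4 of 6 matched).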

Additional observations from a re-analysis of the deposited data

Results flagged for a closer look

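Fibcd1 and Mpped1 had LEV differences of opposite sign at the 2 times. Fibcd1 stood at -0.070 (infarcted) and -0.044 (other side) at 7 d and at 0.39 and 0.43 at 1 m. Mpped1 stood at -0.063 and -0.034 at 7 d and at 0.10 and 0.31 at 1 m. For Wfs1 the sign went with the side. LEV minus no LEV was -0.37 at 7 d and -0.33 at 1 m on the infarcted side, and 0.17 and 0.069 on the non-infarcted side. All are differences of log2(CPM + 1) between single libraries, and the difference between times or sides was not tested. No single pair stood apart from the others by Dixon's criterion in the 18 sets of pair differences examined (6 genes in 3 comparisons).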

How the results depend on the processing

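With 1 library per group, the tests rest on 5 pairs or 4 condition means. Under 13 alternatives the difference between sides ranged from -0.33 to -0.23 for Neurod6 and from -0.37 to -0.18 for Spink8. Neurod6 and Spink8 were chosen as lower in 5 of 5 pairs, so leaving out pairs could not turn their sign. The median over the members ranged from -0.097 to -0.040. With LEV, 0 members passed in any of 19 alternatives (Neurod6 0.13 to 0.44, Spink8 0.056 to 0.46). The sign turned for Wfs1 on the non-infarcted side alone (0.12) and without PT 7 d infarcted (0.0086), where single libraries left out gave -0.24 to 0.0086. It turned for Pou3f1 on the non-infarcted side alone (-0.035), with -0.011 to 0.11 as single libraries were left out. At 1 m against 7 d the 2 calls (Pou3f1 0.63 to 0.77, Mpped1 0.54 to 0.67) became 0 with no filter and 0 with TMM scaling, and 2 passed in the other 17. The cause was not tested. Neurod6 ranged from -0.015 (without PT 1 m non-infarcted) to 0.21 as single libraries were left out. A condition that lost a library kept 1 side only, and the LEV and time fit has no term for side. The difference between sides thus enters the LEV and time ranges given here wherever libraries were left out. The count over all genes at 1 m against 7 d was 2537, but 24 with no filter, 310 with TMM scaling, 657 with edgeR, 824 with DESeq2, 4991 with 8 libraries as independent, and 1061 to 2392 with a library left out (1061 without PT 1 m infarcted, 1280 without PT 7 d LEV non-infarcted). The LEV count of 3 ranged from 0 to 62 (62 without PT 7 d infarcted, 52 on the non-infarcted side alone). Between sides, where 0 genes were called, the count was 50 without the PT 1 m pair and 15 with DESeq2. Sides were compared in pairs by condition, and no replicate numbers in the labels allow a further block. Leaving out both 1 m pairs, or the 2 libraries low in choroid plexus genes, was chosen after seeing the data.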
